A study of Mus musculus with 8 samples.

Results

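Goblet cells fill the colonic crypts with mucin granules and renew the mucus layer that keeps bacteria away from the epithelium. Their best known products were followed here: Muc2, the gel-forming mucin of that layer, Tff3, a trefoil factor peptide secreted with it, Clca1, a secreted metalloprotease that is abundant in mucus, and Agr2, a disulfide isomerase of the endoplasmic reticulum that mucin assembly requires. The genes were chosen by name, and all probe sets annotated to 1 of them were read in every sample. Of the 4 genes, 3 were measured, on 6 probe sets, among 8251 genes on the 10833 probe sets with 1 gene symbol, of 12422 probe sets in all. No probe set carries the symbol Muc2 in the annotation used, so Muc2 is not analysed here.

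The samples were 8 pools of total RNA from whole mouse colon, each hybridised to 1 Affymetrix MG_U74Av2 array, on which a gene is read by 1 or more sets of short oligonucleotide probes. The groups were C3H/HeJBir Il10-null and C3H/HeJBir wild type, and C57BL/6J Il10-null and C57BL/6J wild type, with 2 pools each. Il10-null animals carried the targeted allele Il10tm1Cgn, which removes interleukin 10, a cytokine that restrains inflammation. Such mice are a model of colitis, and the C3H/HeJBir background is known as more susceptible than C57BL/6J. A pool joined equal 7 µg shares of the RNA of 4 or 5 animals, so the spread between animals cannot be seen. An age of 4 weeks is given for 1 pool only, C57BL/6J wild type sample 2, and the sources used here give neither the sex of the animals nor their state of disease. The labels call the sample 2 pools independent replicates of the sample 1 pools. Every p-value therefore rests on the spread between pools, and 8 arrays limit the precision.

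The arrays had similar medians, from 50.1 to 62.2 intensity units. The C3H/HeJBir Il10-null sample 1 pool stood apart: its mean Spearman coefficient with the other arrays was 0.915, while the remaining pools had 0.931 to 0.945. Hybridisation fell on 3 days. The Il10-null sample 1 pools shared the first, the wild-type sample 1 pools the second and all sample 2 pools the third, so only the sample 2 pools allow genotypes to be compared on 1 day. The intensity of Xist, which marks female cells, was 243 to 452 in pools numbered 1 and 2.84 to 12.9 in pools numbered 2. Within every group the pools thus differed in both day and Xist level. The SDs, SEs and p-values of the main fit include these differences and do not separate them from other spread between pools. The pools that can be compared on 1 day are those with low Xist. Il10 itself read 28.3 and 35.4 in C3H/HeJBir Il10-null, against 5.43 and 10.9 in C3H/HeJBir wild type. In C57BL/6J it read 51.7 and 22.03 in Il10-null, against 9.70 and 7.34 in wild type. The Il10 probe set thus read higher in every Il10-null pool than in every wild-type pool, at levels under the limit for testing. The position of these probes in relation to the targeted part of the gene is not given, so they do not check the labels.

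In colon tissue, fewer goblet cells and less RNA per goblet cell cannot be told apart. Of the 3 measured genes, the promoter of Agr2 could be read from the RefSeq promoter table of assembly GRCm38.p6. The 250 bases before its start, on the plus strand of chromosome 12 (chr12:35992675-35992924), are shown because levels of the factors that recognise the searched motifs are given further on.
Agr2: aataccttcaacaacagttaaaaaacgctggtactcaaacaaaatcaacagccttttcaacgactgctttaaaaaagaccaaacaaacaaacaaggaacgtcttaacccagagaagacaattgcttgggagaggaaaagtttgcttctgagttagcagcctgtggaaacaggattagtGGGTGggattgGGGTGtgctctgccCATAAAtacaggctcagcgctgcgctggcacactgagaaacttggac
Capitals mark motif matches. The Cdx motif TTTATG occurred 1 time, on the minus strand, where it reads CATAAA as printed, and 10.8% of the 32851 RefSeq windows of this length held it on either strand. The Klf motif CACCC occurred 2 times, also on the minus strand, and 52% of the windows held it. The Atoh1 E-box CAGCTG and the Foxa motif TGTTTAC had 0 matches in this window, and were held by 13% and 3.17% of the windows. Only these exact letters were searched, so 0 matches does not speak for other forms of a motif. The searched motifs do not overlap each other in this stretch.

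The brightest probe sets of Tff3, Clca1 and Agr2 read high in all 4 groups, averaging 8053, 7784 and 4384 over all pools. The other probe sets were dim, averaging 53.8 for Clca1 and 121 and 4.06 for Agr2. No difference between Il10-null and wild-type colons passed the test. Of the 5 probe sets tested, 0 passed the threshold (limma, adjusted p under 0.05) in any of the 7 comparisons. The background was as low: for Il10-null against wild type, the percentage of all 7453 tested probe sets that passed was 0 in C57BL/6J, 0.0134 in C3H/HeJBir and 0 for the average over strains. In the test of whether the Il10 effect differed between the strains it was 0. At an unadjusted limma p under 0.05, 118 of the 7453 passed in C57BL/6J, 211 in C3H/HeJBir and 230 for the average. For the difference between the strains 112 passed, and 0 of the 5 goblet cell probe sets were among any of these. Each count is a smaller share of all tested probe sets than the 0.05 that evenly spread p-values would give. The absence of the goblet cell probe sets from them therefore says little. The 95% intervals of the bright probe sets were wider in single strains, from -0.71 to 0.27 for Tff3 in C57BL/6J and from -0.91 to 0.36 for Clca1 in C3H/HeJBir, than for the averages given below.

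Tff3 was read by 1 probe set, 100106_at, from a gene on chromosome 17. Its intensity was 7831 and 7901 in the sample 1 and sample 2 pools of C3H/HeJBir Il10-null, against 8767 and 7933 in C3H/HeJBir wild type. It was 7703 and 7088 in C57BL/6J Il10-null, against 8263 and 8939 in C57BL/6J wild type. All 4 Il10-null pools, at 7088 to 7901, therefore lay below all 4 wild-type pools, at 7933 to 8939. The group means were 7866 ± 49.4 in C3H/HeJBir Il10-null and 8350 ± 589 in C3H/HeJBir wild type (SD, n = 2 each). In C57BL/6J they were 7395 ± 435 in Il10-null and 8601 ± 478 in wild type (SD, n = 2 each). The log2 difference, Il10-null minus wild type, was -0.08 in C3H/HeJBir (SE 0.21, limma adjusted p = 1.00) and -0.22 in C57BL/6J (SE 0.21, adjusted p = 1.00). Averaged over the strains it was -0.15 (SE 0.15, 95% interval -0.50 to 0.19, limma adjusted p = 1.00), a fold of 0.901 with an interval from 0.709 to 1.14.

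The order of the Tff3 values depended on the scaling of the arrays. After quantile normalization the Il10-null pools, at 7008 to 8279, still lay below the wild-type pools, at 8481 to 8638. After scaling to a common median they overlapped, with 7246 to 8608 in Il10-null and 7556 to 9533 in wild type. These ranges were computed after the data were seen. On the day that held both genotypes, Tff3 read 7901 in Il10-null and 7933 in wild type of C3H/HeJBir, and 7088 in Il10-null and 8939 in wild type of C57BL/6J. The log2 differences on that day were -0.01 in C3H/HeJBir and -0.33 in C57BL/6J.

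Within a single strain, where 2 pools face 2, such separations were common across the array. Tff3 was the 1 of 5 goblet cell probe sets whose pools did not overlap in C57BL/6J, where 26.2% of all tested probe sets did not overlap and 13.6% were lower in Il10-null. In C3H/HeJBir it was again 1 of 5, where 23.3% did not overlap and 12% were lower. Separations in both strains or over all pools were rarer. Lower Il10-null pools in both strains were found in 1.99% of all tested probe sets, and Il10-null pools on opposite sides of wild type in the strains in 2.47%, with 0 of the 5 goblet cell probe sets among the second. For the 4 Il10-null against the 4 wild-type pools it was 1 of 5, against 1.89% of all tested probe sets in either direction and 0.845% in the lower direction.

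Clca1, whose protein is secreted with the mucins and cleaves Muc2 polymers, lies on chromosome 3 and was read by 2 probe sets. The bright one, 162287_r_at, carries the suffix that Affymetrix gave to sets for which some probe selection rules were dropped. It read 5801 and 8820 in C3H/HeJBir Il10-null, against 8852 and 8495 in C3H/HeJBir wild type. The C57BL/6J pools read 6324 and 7704 in Il10-null, against 7200 and 9075 in wild type. The lowest value was that of the C3H/HeJBir Il10-null sample 1 pool, and the genotypes overlapped in both strains. Means were 7311 ± 2135 in C3H/HeJBir Il10-null and 8674 ± 253 in C3H/HeJBir wild type, and 7014 ± 976 in C57BL/6J Il10-null and 8138 ± 1326 in C57BL/6J wild type (SD, n = 2 each).

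The log2 difference of this Clca1 probe set, Il10-null minus wild type, was -0.28 in C3H/HeJBir and -0.21 in C57BL/6J (SE 0.28 each, limma adjusted p = 1.00 for both). The average was -0.24 (SE 0.20, 95% interval -0.69 to 0.20), a fold of 0.844 with an interval from 0.618 to 1.15. The pool that stood apart decided the C3H/HeJBir value, since without it the difference was 0.02. With the hybridisation day as a block the average was -0.09 (SE 0.22). This value rests on the sample 2 pools, since the genotypes of the sample 1 pools were hybridised on different days. In those sample 2 pools the bright Clca1 probe set differed by 0.05 in C3H/HeJBir and by -0.24 in C57BL/6J, which is not a separate check.

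The dim Clca1 probe set, 100623_at, ran a different course. It read 29.7 and 46.1 in C3H/HeJBir Il10-null, against 56.9 and 33.1 in C3H/HeJBir wild type. C57BL/6J pools gave 107 and 56.1 in Il10-null, against 67.2 and 35.1 in wild type. Its highest value came from the C57BL/6J Il10-null sample 1 pool, in which the bright probe set was lower than in 6 of the other 7 pools. Its log2 difference, Il10-null minus wild type, was -0.18 in C3H/HeJBir (SE 0.39) and 0.56 in C57BL/6J (SE 0.39), and the test of the difference between these effects gave -0.75 (SE 0.56, limma adjusted p = 1.00). The 2 probe sets of Clca1 thus had opposite signs in C57BL/6J, and neither passed.

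Agr2, the disulfide isomerase, lies on chromosome 12 and was read by 3 probe sets. The bright one, 101075_f_at, carries the suffix for probes that other sequences of a family can share. It read 3690 and 4678 in C3H/HeJBir Il10-null, against 3939 and 4459 in C3H/HeJBir wild type. The values in C57BL/6J were 4796 and 4282 in Il10-null, against 4990 and 4240 in wild type. In C3H/HeJBir the Il10-null values enclosed the wild-type ones, and in C57BL/6J the wild-type values enclosed the Il10-null ones. Means were 4184 ± 698 in C3H/HeJBir Il10-null and 4199 ± 368 in C3H/HeJBir wild type, and 4539 ± 363 in C57BL/6J Il10-null and 4615 ± 530 in C57BL/6J wild type (SD, n = 2 each).

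The log2 difference of this Agr2 probe set, Il10-null minus wild type, was -0.01 in C3H/HeJBir and -0.02 in C57BL/6J (SE 0.24 each, limma adjusted p = 1.00 for both). Averaged it was -0.02 (SE 0.17, 95% interval -0.40 to 0.37), a fold of 0.988 with an interval from 0.757 to 1.29. Its sign turned with the hybridisation day as a block, to 0.04, an average that rests on the sample 2 pools alone. The second set, 101076_r_at, read 104 and 88.4 in C3H/HeJBir Il10-null, against 189 and 60.9 in C3H/HeJBir wild type. Among C57BL/6J pools it was 145 and 86.4 in Il10-null, against 177 and 120 in wild type, and its average log2 difference was -0.26 (SE 0.33, limma adjusted p = 1.00). The third, 162200_r_at, averaged 4.06 and was too dim to be tested. It read 16.5 and 5.27 in C3H/HeJBir Il10-null and 1.09 to 2.45 in the other 6 pools.

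**Figure D1:**
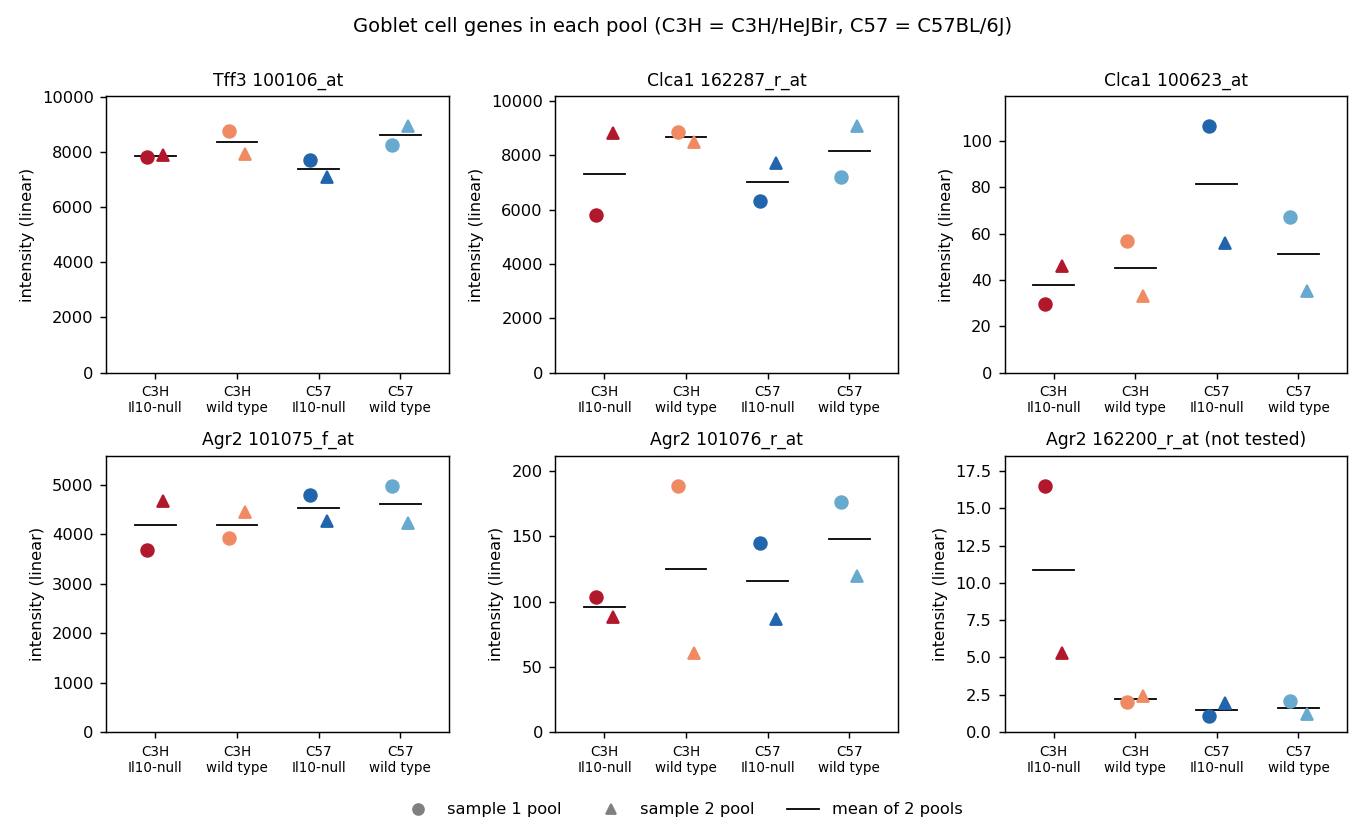
Intensity on a linear scale from 0 of each goblet cell probe set in the 8 pools, by group, with circles for sample 1 pools, triangles for sample 2 pools and a bar at the mean of 2 pools. Tff3 spans 7088 to 7901 in the 4 Il10-null pools and 7933 to 8939 in the 4 wild-type pools, while the other probe sets overlap between genotypes in at least 1 strain.

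The strains did not differ detectably in these genes either. Differences between strains were taken as C3H/HeJBir minus C57BL/6J. Of these, 0 of 5 goblet cell probe sets passed in Il10-null colons, in wild-type colons or on average. Among all tested probe sets, 0.295% passed in Il10-null, 0.403% in wild type and 1.11% on average. At an unadjusted limma p under 0.05 these comparisons gave 385, 423 and 628 of the 7453 tested probe sets, again with 0 of the 5 among them. The average strain difference was 0.02 for Tff3 (SE 0.15, 95% interval -0.32 to 0.37), 0.07 for the bright Clca1 probe set (SE 0.20, interval -0.38 to 0.52) and -0.13 for the bright Agr2 probe set (SE 0.17, interval -0.52 to 0.26). For the dim probe sets it was -0.51 for Clca1 100623_at (SE 0.28, limma adjusted p = 0.768) and -0.30 for Agr2 101076_r_at (SE 0.33, limma adjusted p = 0.997).

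Among the 5 tested probe sets, pools of the strains did not overlap in 2 cases, both in Il10-null colons. Tff3 was higher in C3H/HeJBir Il10-null, at 7831 and 7901, against 7703 and 7088 in C57BL/6J Il10-null, with a log2 difference of 0.09 (SE 0.21). Clca1 100623_at was lower in C3H/HeJBir Il10-null, at 29.7 and 46.1, against 107 and 56.1 in C57BL/6J Il10-null, with a log2 difference of -0.88 (SE 0.39, 95% interval -1.78 to 0.02, limma adjusted p = 0.983). Of all tested probe sets, 27.2% did not overlap in that comparison, 11.9% higher and 15.3% lower in C3H/HeJBir. In wild type and for the 4 against 4 pools of the strains, 0 of 5 goblet cell probe sets did not overlap, where 31% and 6.48% of all tested probe sets did not.

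**Figure D2:**
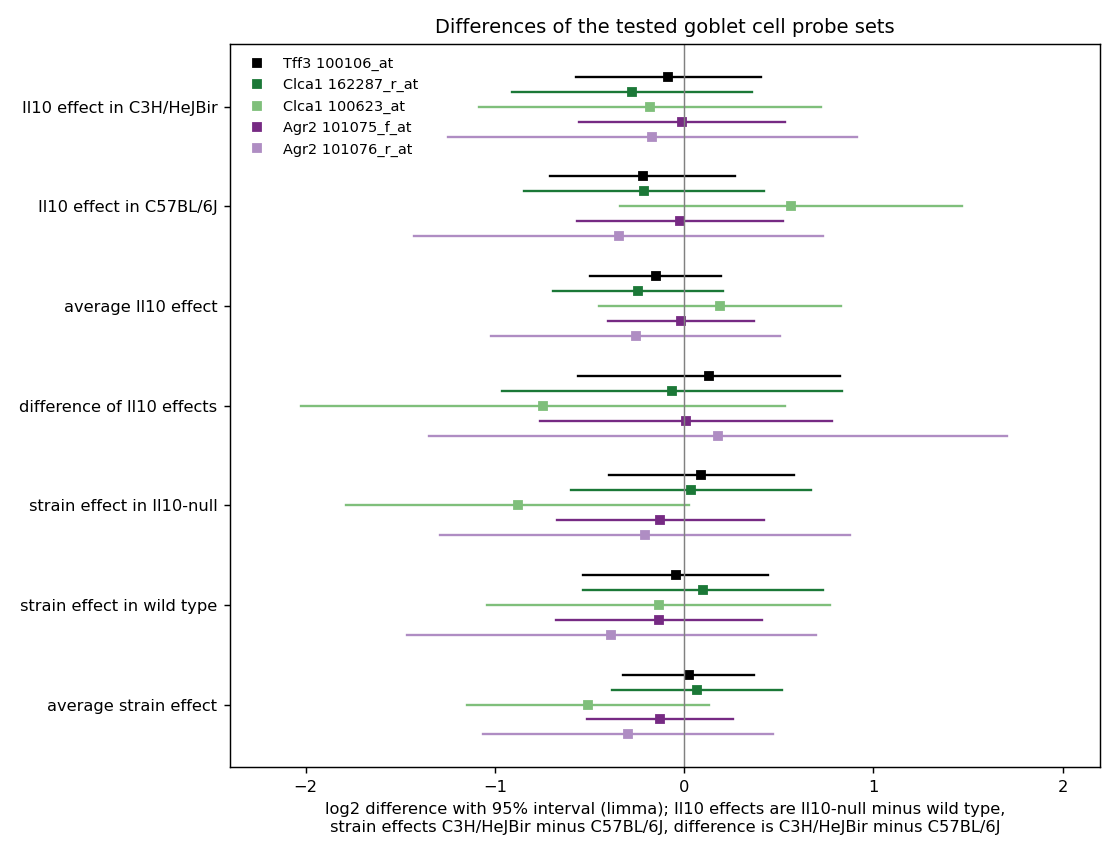
Log2 differences of the 5 tested goblet cell probe sets in the 7 comparisons, with 95% intervals from the limma fit and a line at 0. Every interval includes 0, and the strain effect of Clca1 100623_at in Il10-null colons, at -0.88, has the upper limit nearest to it, at 0.02.

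The spread from pool to pool was set beside that of probe sets at least as bright as the bright Agr2 set. Across the 8 pools, whatever their group, the SD of log2 intensity was 0.107 for Tff3, 0.242 for the bright Clca1 probe set and 0.146 for the bright Agr2 probe set. The highest pool exceeded the lowest by 1.26-fold for Tff3, 1.56-fold for Clca1 and 1.35-fold for Agr2. Over all tested probe sets the median SD was 0.286 and the median ratio 1.90. The 73 probe sets with a mean at or above that of the bright Agr2 set had a median SD of 0.146 and a median ratio of 1.36. Beside these, Tff3 varied less and Clca1 varied more, though both are among the 73. The bright Agr2 set is the dimmest of the 73 and its own SD is their median, so its place is not a comparison with others. The dim probe sets of Clca1 and Agr2 had an SD of 0.506 and 0.507. How far array brightness limits these ratios was not tested.

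Correlations between the 3 genes across the pools did not pass their tests. Over the 8 pools, which fall into 4 groups and share days, Tff3 and Clca1 had a Pearson r of 0.456 (exact permutation p = 0.259, Benjamini-Hochberg adjusted p = 0.777 over 3 pairs) and a Spearman rho of 0.690 (exact permutation p = 0.0694, adjusted p = 0.208). Without the 2 pools farthest from the Tff3 median r was 0.529. Tff3 and Agr2 had an r of -0.133 (exact permutation p = 0.751, adjusted p = 0.806) and a rho of -0.143 (p = 0.752 by the same exact test, adjusted p = 0.752), and r was -0.229 without 2 pools. Clca1 and Agr2 had an r of 0.104 (exact permutation p = 0.806, adjusted p = 0.806) and a rho of -0.190 (p = 0.665 by the same exact test, adjusted p = 0.752), and r was -0.591 without 2 pools.

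The tested probe sets most like each gene across the 8 pools were different ones. For Tff3 they were those of Entpd6 (r = 0.922), Btf3 (r = 0.915) and Gucy2c (r = 0.905), the last encoding guanylate cyclase C, the intestinal receptor for guanylin. For Clca1 they were Snapin (r = 0.983), Abca2 (r = 0.971) and H1f2 (r = 0.964), and for Agr2 they were Rap1gap (r = 0.984), Armc10 (r = 0.980) and Kansl2 (r = 0.958). They were picked as the highest of 6726 correlations or more, so these values describe the pools and carry no test.

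The 7 lists of genes around goblet cell secretion gave the setting of these values. In the 3 comparisons of Il10-null with wild type and in the test of the strain difference of that effect, 0 genes of any of the 7 lists passed (limma, adjusted over all 7453 tested probe sets).

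Other goblet cell products had 11 tested genes of 25 listed. Their median log2 difference, Il10-null minus wild type, was -0.16 in C3H/HeJBir and -0.06 in C57BL/6J, beside -0.01 in both strains over all tested probe sets. On average over strains 9 of the 11 were below 0 and 2 above, while 3917 of all 7453 tested probe sets were below 0. The largest value was that of Retnlb, a resistin-like protein secreted by goblet cells. It read 10963 and 10101 in C3H/HeJBir Il10-null, against 10942 and 9363 in C3H/HeJBir wild type. In C57BL/6J it read 1572 and 4033 in Il10-null, against 745 and 514 in wild type, a log2 difference of 2.01 (SE 0.42) that did not pass (limma adjusted p = 1.00). Tff2, another trefoil factor, known best from the stomach, read 21.1 and 78.8 in C3H/HeJBir Il10-null, against 272 and 143 in C3H/HeJBir wild type, with a log2 difference of -1.96 (SE 0.68, limma adjusted p = 1.00). The C57BL/6J pools read 45.0 and 3.93 in Il10-null, against 16.4 and 6.29 in wild type.

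The list of goblet cell transcription factors had 13 tested genes of 15 listed. It also holds broader factors of the intestinal epithelium, Cdx1, Cdx2 and Elf3 among them, so it does not read goblet cells alone. The median difference of the 13, Il10-null minus wild type, was -0.21 in C3H/HeJBir, with 10 of 13 below 0. In C57BL/6J it was 0.24, with 10 of 13 above 0. The effect in C3H/HeJBir minus that in C57BL/6J had a median of -0.31, with 12 of 13 below 0, beside -0.01 over all tested probe sets, and 0 of the 13 passed. Leaving out 1 pool at a time moved that median between -0.41 and -0.26. Of all 7453 tested probe sets, 3837 were below 0 in C3H/HeJBir, 3646 above 0 in C57BL/6J and 3785 below 0 in the difference. The 13 genes share pools, so their counts are not independent. The genes' median deviation from the mean of all pools was -0.20 and -0.14 in C3H/HeJBir Il10-null, against -0.14 and 0.14 in wild type. Only the wild-type pool at 0.14 stood clear of those Il10-null pools. In C57BL/6J it was 0.23 and 0.20 in Il10-null, against -0.01 and -0.16 in wild type. Spdef, which drives goblet cell maturation, read 228 and 239 in C3H/HeJBir Il10-null, against 290 and 379 in C3H/HeJBir wild type. C57BL/6J pools gave 497 and 276 in Il10-null, against 341 and 215 in wild type, and the difference between the effects was -0.92 (SE 0.48, limma adjusted p = 1.00). Atoh1, the factor that commits cells to the secretory lineage, was dim, at 10.7 to 29.3 in the C3H/HeJBir pools and 23.8 to 104 in the C57BL/6J pools. Its strain difference was -1.78 in Il10-null colons (SE 0.53, limma adjusted p = 0.525). Of the caudal homeobox factors, Cdx1 had an Il10 difference of -0.34 in C3H/HeJBir and 0.50 in C57BL/6J (SE 0.24 each), and Cdx2, dim at 27.4 to 66.4, had an average of -0.29 (SE 0.22). Elf3, an epithelial ETS factor, had the largest average of the list. It read 1590 and 1035 in C3H/HeJBir Il10-null, against 978 and 953 in C3H/HeJBir wild type. In C57BL/6J pools Elf3 gave 1794 and 1559 in Il10-null, against 1262 and 1257 in wild type. Its average difference was 0.41 (SE 0.18) and did not pass (limma adjusted p = 1.00).

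Klf and Foxa factors, whose motifs were searched in the Agr2 promoter, did not pass in any comparison either. Klf4, which takes part in goblet cell differentiation, read 1826 and 1755 in C3H/HeJBir Il10-null, against 1529 and 2071 in C3H/HeJBir wild type. For C57BL/6J the Klf4 values were 2085 and 2193 in Il10-null, against 1715 and 1947 in wild type, and its average difference was 0.12 (SE 0.17). Foxa1, Foxa2 and Foxa3, forkhead factors of the gut epithelium, read 287 to 420, 151 to 225 and 121 to 234 across the 8 pools, with average differences of -0.05 (SE 0.19), 0.04 (SE 0.16) and -0.14 (SE 0.21).

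Membrane mucins, which stay anchored on the cell surface, had 3 tested genes of 10 listed: Muc1, Muc3 and Muc13. Muc13 read 8158 and 6191 in C3H/HeJBir Il10-null, against 4840 and 4486 in C3H/HeJBir wild type, with a log2 difference of 0.61 (SE 0.26) that did not pass (limma adjusted p = 1.00). The values in C57BL/6J were 5281 and 6339 in Il10-null, against 4534 and 6189 in wild type. The list's median was 0.40 in C3H/HeJBir and 0.13 in C57BL/6J.

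Enzymes and transporters of mucin O-glycosylation had 19 tested genes of 34 listed, with medians of 0.04 in C3H/HeJBir and -0.0044 in C57BL/6J. St6galnac4, a sialyltransferase, was dim, at 32.2 and 55.6 in C57BL/6J Il10-null, against 14.0 and 16.8 in C57BL/6J wild type, and had the largest difference of the list there, at 1.02 (SE 0.29, limma adjusted p = 1.00). In C3H/HeJBir its difference was 0.05 (SE 0.29). Genes of protein folding and export in the endoplasmic reticulum, where Agr2 works, had 27 tested genes of 35 listed, with medians of 0.09 in C3H/HeJBir and 0.08 in C57BL/6J. In this list 20 of 27 were above 0 on average, beside 3536 of all 7453 tested probe sets. Hspa5, the chaperone BiP, had an average difference of 0.37 (SE 0.22, limma adjusted p = 1.00), and Manf, a secreted factor induced by unfolded proteins, one of 0.46 (SE 0.22, limma adjusted p = 1.00).

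The Notch pathway, which holds progenitors back from the secretory fate, had 13 tested genes of 22 listed, with medians of 0.07 in C3H/HeJBir and 0.11 in C57BL/6J. Its target Hes1 read 164 and 141 in C3H/HeJBir Il10-null, against 226 and 218 in C3H/HeJBir wild type. Among C57BL/6J pools it was 208 and 154 in Il10-null, against 249 and 212 in wild type, and all 4 Il10-null pools lay below all 4 wild-type pools. Hes1 was the 1 of the 90 tested pathway genes that did so, beside 0.845% of all tested probe sets. A count of 1 among 90 is close to that share. The separation was also seen after quantile normalization, with 147 to 204 in Il10-null and 215 to 246 in wild type, and after scaling to a common median, with 153 to 196 in Il10-null and 209 to 248 in wild type, both chosen after the data were seen. The average difference of Hes1 was -0.43 (SE 0.17) and did not pass (limma adjusted p = 1.00). Notch2, a receptor of the pathway, had an average of 0.70 (SE 0.23, limma adjusted p = 1.00). The type 2 cytokine response, which is known to induce goblet cell genes, had 4 tested genes of 21 listed. Of the 21 listed, 13 were on the array, and those too dim to be tested included the cytokines Il4, Il5 and Il13. Its median was 0.16 in C3H/HeJBir and 0.12 in C57BL/6J, and Il4ra, the shared receptor chain, had an average of 0.36 (SE 0.24, limma adjusted p = 1.00).

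Between the strains, 3 genes of these lists passed. Each was read by 1 probe set, and whether the sequence it probes differs between the strains was not tested. On average over genotypes 1 rose and 1 fell among the 11 other goblet cell products, 1 fell among the 19 O-glycosylation genes, and 0 of the tested genes of the other 5 lists passed, beside 1.11% of all tested probe sets. With the replicate block on the sample number 5 genes passed, adding B4galnt2, a glycosyltransferase, and Ssr1, of the translocon. Retnlb was higher in C3H/HeJBir by 3.03 on the log2 scale (SE 0.30, limma adjusted p = 0.00182) and by 4.01 in wild type alone (SE 0.42, adjusted p = 0.00640). The call in wild type alone was lost in each of the 4 fits that left out a wild-type pool (adjusted p 0.0512 to 0.0824). In Il10-null colons its difference was 2.06 (SE 0.42) and did not pass (adjusted p = 0.136). Its means were 10532 ± 610 in C3H/HeJBir Il10-null and 2803 ± 1740 in C57BL/6J Il10-null, and 10152 ± 1116 in C3H/HeJBir wild type and 629 ± 163 in C57BL/6J wild type (SD, n = 2 each).

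Ang, a secreted ribonuclease, read 56.8 and 108 in C3H/HeJBir Il10-null, against 210 and 265 in C57BL/6J Il10-null. In wild type it read 113 and 85.1 in C3H/HeJBir, against 295 and 305 in C57BL/6J, and on average it fell by 1.48 (SE 0.22, limma adjusted p = 0.0194). Its probe set carries the suffix for probes shared within a sequence family. It passed in 2 of the 8 fits that left out 1 pool, those without a C3H/HeJBir Il10-null pool, and had adjusted p from 0.0577 to 0.0924 in the other 6. St3gal4, a sialyltransferase, read 12.7 and 41.1 in C3H/HeJBir Il10-null, against 618 and 1020 in C57BL/6J Il10-null. In wild type it read 25.4 and 50.8 in C3H/HeJBir, against 858 and 836 in C57BL/6J, and the average difference was -4.34 (SE 0.31, limma adjusted p = 0.000435). No tested probe set of Tff3, Clca1 or Agr2 passed in the strain comparisons. The average strain effects of their bright probe sets had upper and lower limits of 0.52 and -0.52. Those of the dim ones were less well bounded, from -1.15 to 0.13 for Clca1 100623_at and from -1.06 to 0.47 for Agr2 101076_r_at.

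Of the 12 lists of markers of other cells, only that of the small intestine and Paneth cells held a gene that passed on average over genotypes. Of its 5 tested genes, from 19 listed, 1 rose and 4 did not pass, beside 1.11% of all tested probe sets. It was Mmp7, a metalloprotease of Paneth cells, which read 308 and 225 in C3H/HeJBir Il10-null, against 12.4 and 12.1 in C57BL/6J Il10-null. Wild-type colons had Mmp7 at 184 and 115 in C3H/HeJBir, against 7.03 and 5.84 in C57BL/6J, and the average difference was 3.36 (SE 0.20, limma adjusted p = 0.000229). The median of the 5 genes was 0.16. The 9 tested B and plasma cell genes had a median of 0.40, with 7 above 0, and 0 passed. Of all 7453 tested probe sets, 3422 were above 0 in that comparison. The part of these cells in the strain differences of Retnlb, Ang and St3gal4 was not tested.

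**Figure D3:**
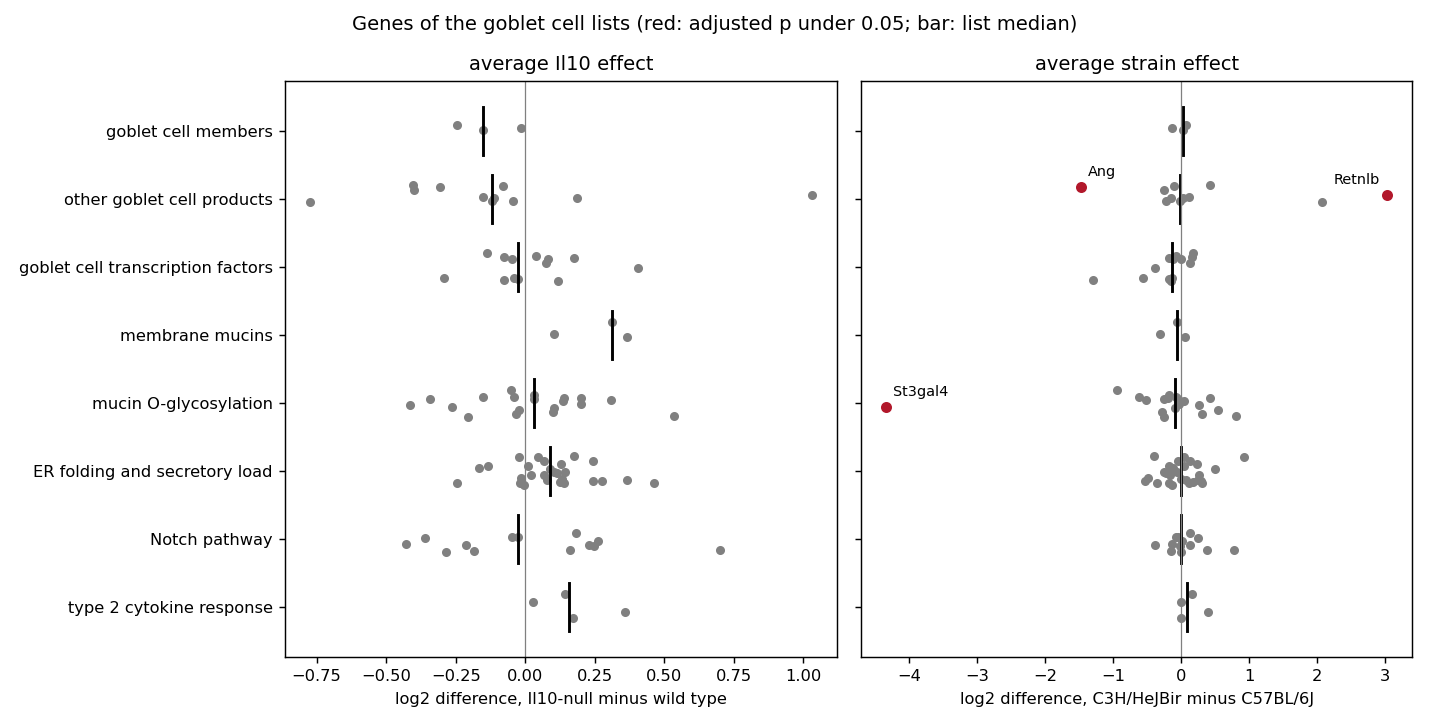
Log2 differences of the tested genes of the goblet cell lists, on the left for the average Il10 effect and on the right for the average strain effect, each dot a gene, each bar the list median, red for adjusted p under 0.05. The measured goblet cell genes lie between -0.24 and -0.02 on the left, and Retnlb (3.03), Ang (-1.48) and St3gal4 (-4.34) stand out on the right.

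Markers of other cell types were read in the same pools, since whole colon holds them all. For Il10-null against wild type 0 tested genes of the 12 marker lists passed in either strain or on average, and the list medians of the average difference ran from -0.38 for enteroendocrine cells to 0.27 for T and NK cells. The C3H/HeJBir Il10-null sample 1 pool, which had the lowest value of the bright Clca1 and Agr2 probe sets, deviated from the mean of the 8 pools by -0.53 (log2, list median) in 10 smooth muscle genes, -0.51 in 13 fibroblast genes and -0.73 in 9 enteroendocrine genes. In the same pool 11 exocrine pancreas genes deviated by 1.06, 4 T and NK cell genes by 0.79 and 4 neutrophil genes by 0.60. The summed level of the 13 neutrophil markers on the array was 1162 in that pool and 375 to 511 in the other 7, and S100a8, a calprotectin subunit of neutrophils, read 581 there and 9.53 to 34.99 elsewhere. Mpo and Elane, further neutrophil genes, were at 8.21 and 14.9 in that pool, under the limit for testing. The 3 goblet cell genes deviated there by -0.04 (Tff3), -0.41 (Clca1) and -0.24 (Agr2), and their summed level was 17323, against 18824 to 22255 in the other pools. Absorptive colonocyte markers, 14 genes of the neighbouring epithelial lineage, had medians of 0.02 in C3H/HeJBir and -0.02 in C57BL/6J for Il10-null minus wild type. The part of other cell types in the values of the goblet cell genes was not tested.

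**Figure D4:**
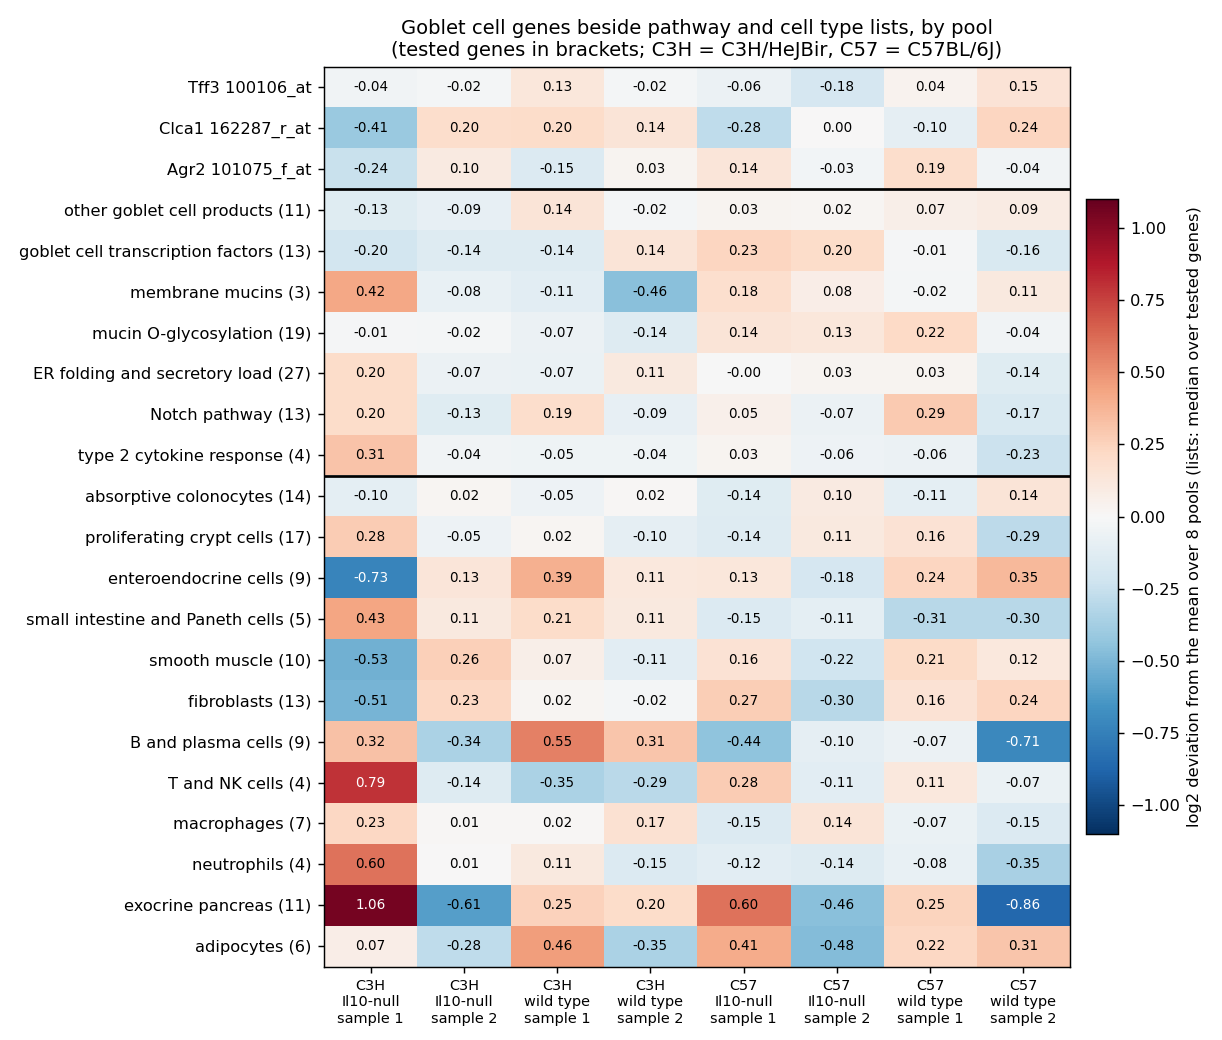
Deviation of each pool from the mean of the 8 pools on the log2 scale, for the bright probe set of each goblet cell gene and, as medians over tested genes, for the pathway and cell type lists. The C3H/HeJBir Il10-null sample 1 column holds the extremes of the exocrine pancreas (1.06) and enteroendocrine (-0.73) lists, and Tff3 stays within -0.18 to 0.15 in all pools.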

How the data were processed

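The authors deposited 1 intensity value per probe set and array on a linear scale, from 0.03 to 12860. The arrays' 2% trimmed means lay within a ratio of 1.01 of each other, so the deposited intensities had been scaled. The sources used here give neither the way probes were summarised nor a scaling target or detection calls. Gene names came from the platform annotation (10833 probe sets with 1 symbol, 396 with several, 1193 with none), with 10817 matched by gene number to RefSeq (GRCm38.p6), which changed 0 symbols.

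To each deposited intensity 11.07 was added, the 20th percentile, before taking log2, so changes of dim probe sets are understated. Probe sets averaging at least 37.0, the 40th percentile, were tested, 7453 of 12422. A model of 4 group means was fitted to the 8 pools with limma 3.58.1 in R 4.3.3 (4.23 prior degrees of freedom, 4 residual). The comparisons were 7, two-sided, adjusted by Benjamini-Hochberg over all tested probe sets, with a threshold of 0.05 and 95% intervals. In the lists, the brightest probe set stands for its gene. The fit was also run on simulated data with independent noise and changes larger than those of the goblet cell probe sets. That run does not cover small changes or deviations shared between pools.

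All probe sets of the goblet cell genes are given. Of each of the 7 pathway lists, genes past the threshold were eligible to be named, or else the 2 with the largest difference, and of the probe sets most like each gene the first 3. S100a8, Mpo, Elane, Il4, Il5, Il13, B4galnt2, Mmp7, Klf4, Foxa1, Foxa2 and Foxa3 were named after their values were seen. The goblet cell genes and the 7 pathway and 12 cell type lists were chosen with earlier results of these data known.

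Pools with the same sample number deviated from their group means together, with correlations across probe sets of 0.198 to 0.332 over 6 pairs of groups, so 1 alternative blocks on this number. Other alternatives were the pseudocount (2.76 or 56.7), the filter, the scaling, limma's trend and robust moderation, the groups fitted, the day as a block, and each pool left out in turn.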

Additional observations from a re-analysis of the deposited data

Results flagged for a closer look

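In 3 of the 90 tested genes of the pathway lists the Il10-null pools lay on opposite sides of the wild-type pools in the strains. This held for 2.47% of all tested probe sets, and 3 among 90 is close to that share. Cdx1, a caudal homeobox factor of the intestinal epithelium, read 362 and 379 in C3H/HeJBir Il10-null, against 397 and 559 in C3H/HeJBir wild type. In C57BL/6J it read 505 and 496 in Il10-null, against 330 and 372 in wild type. The Il10 effect in C3H/HeJBir minus that in C57BL/6J was -0.84 on the log2 scale (SE 0.34), and this test of the difference did not pass (limma adjusted p = 1.00).

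Foxa2, a forkhead factor of the gut epithelium, read 151 and 168 in C3H/HeJBir Il10-null, against 181 and 192 in C3H/HeJBir wild type. In C57BL/6J it read 225 and 181 in Il10-null, against 177 and 151 in wild type. Its difference between the strains' effects was -0.49 (SE 0.32), and the test did not pass (limma adjusted p = 1.00).

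St3gal1, a sialyltransferase of O-glycans, read 128 and 141 in C3H/HeJBir Il10-null, against 106 and 108 in C3H/HeJBir wild type. In C57BL/6J it read 108 and 113 in Il10-null, against 127 and 169 in wild type. Its difference between the strains' effects was 0.68 (SE 0.32), which did not pass either (limma adjusted p = 1.00). With 2 pools in a group, single pools could not be tested as outliers.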

How the results depend on the processing

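Here the bright and dim probe sets of Clca1 and Agr2 are the tested ones described above. The 35 differences of the goblet cell probe sets were recomputed 608 times, and 0 passed, with a smallest limma adjusted p of 0.458. The sign held in 554 and turned in 54, over 23 of the 35 differences. The average Il10 difference of Tff3 stayed between -0.19 and -0.12 (adjusted p 0.924 to 1.00). Quantile normalization gave Tff3 -0.068 for both the difference of Il10 effects and the strain effect in Il10-null and -0.034 for the average strain effect, bright Clca1 -0.14 for the strain effect in Il10-null, and bright Agr2 -0.026 for the difference of Il10 effects. Scaling to a common median gave Tff3 0.0088 for the strain effect in wild type, and bright Agr2 -0.0028 for the difference of Il10 effects. With the day as a block the Il10 effect turned to 0.084 for dim Clca1 in C3H/HeJBir. It turned to 0.046 in C3H/HeJBir, 0.037 in C57BL/6J and 0.042 on average for bright Agr2, and to 0.11 in C3H/HeJBir and 0.022 on average for dim Agr2.

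Leaving out 1 pool in turn gave, for Tff3, a strain effect of -0.12 to 0.029 in wild type and -0.013 to 0.059 on average. Bright Clca1 had an Il10 effect of -0.58 to 0.025 in C3H/HeJBir, a difference of Il10 effects of -0.37 to 0.24, and strain effects of -0.27 to 0.34 in Il10-null, -0.066 to 0.27 in wild type and -0.083 to 0.22 on average. Dim Clca1 had Il10 effects of -0.49 to 0.13 in C3H/HeJBir and -0.011 to 0.39 on average, and a strain effect of -0.52 to 0.25 in wild type. Bright Agr2 had Il10 effects of -0.18 to 0.16 in C3H/HeJBir, -0.14 to 0.096 in C57BL/6J and -0.10 to 0.068 on average, a difference of these of -0.16 to 0.18, and a strain effect of -0.30 to 0.046 in Il10-null. Dim Agr2 had Il10 effects of -0.91 to 0.57 in C3H/HeJBir and -0.63 to 0.11 on average, a difference of -0.56 to 0.92, and strain effects of -0.55 to 0.13 in Il10-null, -1.12 to 0.35 in wild type and -0.66 to 0.073 on average.

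Pathway genes called in the strain comparisons numbered 2 in wild type, 1 in Il10-null and 3 on average. With the larger pseudocount they numbered 4, 2 and 6, and with trend and robust moderation 2 passed in Il10-null and 5 on average. The 60th-percentile filter, quantile normalization and the replicate block each gave 5 on average. Without 1 pool they numbered 0 to 2 in wild type and 0 to 1 in Il10-null. In wild type the count was 0 without C3H/HeJBir wild type sample 1 or either C57BL/6J wild type pool (Retnlb adjusted p 0.0512 to 0.0824, St3gal4 0.0625 to 0.0757) and 1 without C3H/HeJBir wild type sample 2 (Retnlb adjusted p 0.0721). In Il10-null it was 0 without C57BL/6J Il10-null sample 2 (St3gal4 adjusted p 0.0558). Which genes passed under each setting was read after the data were seen. The replicate block changed no other call. It gave Tff3 an average Il10 effect of -0.15 (adjusted p 0.979). The causes of these changes were not tested.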
